A study of Homo sapiens with 36 samples.

Results

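MHC class I antigen presentation was followed through 9 genes of the RNA count table: the class I heavy chains HLA-B, HLA-C and HLA-E, the shared light chain gene B2M, the peptide transporter genes TAP1 and TAP2, the tapasin gene TAPBP, and the immunoproteasome genes PSMB8 and PSMB9. These members were chosen by symbol, and all 9 were among the 25344 gene symbols of the table and among the 9847 genes that passed the filter on low counts. The cells were HMC3, an established human microglial line, exposed for 24 h to vehicle or to PFOS (perfluorooctane sulfonate, a long-lived fluorinated surfactant) at 25 µM or 50 µM. In the recovery groups the 24 h exposure was followed by a further 24 h in medium free of PFOS. Each of the 6 groups (vehicle, 25 µM PFOS and 50 µM PFOS, each at 24 h and after recovery) held 3 RNA-seq libraries of poly(A) RNA from this single line, with no genetic modification stated. The remaining 18 of the 36 samples, H3K27ac CUT&Tag libraries, are not used here. The labels call the libraries biological replicates, without saying whether these were separate cultures, and the p-values therefore reflect only how far such libraries spread, which may be technical.

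MHC class I molecules display peptides from inside the cell to CD8+ T cells. Proteasomes cut cytosolic proteins into peptides, and PSMB8 (LMP7) and PSMB9 (LMP2) are catalytic subunits that replace constitutive subunits in the immunoproteasome. The TAP1-TAP2 transporter moves the peptides into the endoplasmic reticulum, where tapasin holds the transporter next to empty class I molecules while they load. A loaded molecule consists of a heavy chain, the B2M light chain and a peptide. In microglia and many other cells these genes are known as targets of interferon signalling. Several of them are also known targets of the transactivator NLRC5. It acts through a conserved group of promoter elements that includes a CCAAT-type element and a cAMP response-like element.

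In these libraries 4 of the 9 genes passed the test in at least 1 of the 4 comparisons of PFOS with vehicle, in every case at 50 µM and upward. TAP2 was 2.06-fold higher than vehicle at 24 h, the 1 of the 9 called there, where 18.8% of all tested genes were called and 9.18% were called higher. After recovery B2M was 2.98-fold higher, PSMB8 2.60-fold higher and PSMB9 2.75-fold higher. These 3 of the 9 stand beside 28.4% of all tested genes called and 17.7% called higher. With 9 members, neither count is far from the share of all genes called. HLA-B, HLA-C, HLA-E, TAP1 and TAPBP did not pass it in any of these comparisons. The levels of B2M, PSMB8 and PSMB9 were highest in the same library, whose ribosomal protein share was also the highest of the series, and without it B2M stayed called while PSMB8 and PSMB9 did not.

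Promoter sequence is shown for the 4 genes that rose, so that the known types of class I promoter element can be seen in place. RefSeq promoter windows on GRCh38.p14 were matched by symbol for 8 of the 9 genes; HLA-E had no entry. The 250 bases before each annotated start were searched on both strands for 4 motifs. The first was the interferon response motif GAAANNGAAA. The others were the CCAAT box CCAAT, the cAMP response core TGACG and the GAS-like motif TTCNNNGAA. Capitals mark every match to any of the 4, read 5′ to 3′ along the gene's own strand; a match on the other strand appears as its reverse complement.
B2M promoter (chr15:44711267-44711516, plus strand): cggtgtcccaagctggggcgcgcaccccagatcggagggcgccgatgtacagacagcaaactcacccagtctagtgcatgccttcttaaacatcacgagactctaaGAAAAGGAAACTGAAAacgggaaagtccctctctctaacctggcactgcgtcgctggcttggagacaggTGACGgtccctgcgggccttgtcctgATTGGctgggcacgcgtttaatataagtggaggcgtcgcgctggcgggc
TAP2 promoter (chr6:32838740-32838989, minus strand): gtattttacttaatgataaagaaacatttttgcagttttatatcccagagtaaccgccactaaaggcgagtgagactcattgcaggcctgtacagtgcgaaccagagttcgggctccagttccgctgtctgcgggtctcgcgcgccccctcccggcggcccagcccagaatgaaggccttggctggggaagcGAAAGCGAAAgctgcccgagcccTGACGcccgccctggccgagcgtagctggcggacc
PSMB8 promoter (chr6:32844680-32844929, minus strand): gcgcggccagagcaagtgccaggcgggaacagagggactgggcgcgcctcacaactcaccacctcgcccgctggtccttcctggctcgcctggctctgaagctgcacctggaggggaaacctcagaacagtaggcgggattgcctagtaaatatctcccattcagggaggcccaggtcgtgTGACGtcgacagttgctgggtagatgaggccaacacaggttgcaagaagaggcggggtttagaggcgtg
PSMB9 promoter (chr6:32853942-32854191, plus strand): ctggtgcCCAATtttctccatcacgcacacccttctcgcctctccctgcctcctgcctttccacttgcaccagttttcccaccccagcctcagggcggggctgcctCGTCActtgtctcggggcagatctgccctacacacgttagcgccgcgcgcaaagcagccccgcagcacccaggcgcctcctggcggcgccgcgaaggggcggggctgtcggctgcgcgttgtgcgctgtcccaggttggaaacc

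The 8 genes had 10 windows, since TAP1 and PSMB8 each had a second annotated start, and shares are given per window. The interferon response motif was in 4 of the 10 windows, 1 each of B2M, TAP1, TAP2 and TAPBP, against 3.02% of the 35116 RefSeq windows of this length. B2M held 2 overlapping matches between 144 and 129 bases before its start. TAP2 held 1 match, 58 to 49 bases before its start. TAP1 and TAPBP, which were not called in any comparison of PFOS with vehicle, held the same motif, and the 30 bases around it are shown for comparison, with only this motif in capitals.
TAP1 stretch (chr6:32853816-32853845, minus strand): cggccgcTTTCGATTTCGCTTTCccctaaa
TAPBP stretch (chr6:33314079-33314108, minus strand): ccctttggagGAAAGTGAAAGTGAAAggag

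Each of these held 2 overlapping matches, so the motif was present both in genes that were called and in genes that were not. PSMB8 and PSMB9, which were called after recovery, had no match to it in the searched bases. The TAP1 matches, 134 to 119 bases before the TAP1 start, lie between the TAP1 and PSMB9 starts. They are further from the PSMB9 start than the 250 bases searched. The CCAAT box was in 5 of the 10 windows, against 32% of all windows, and the cAMP response core in 6, against 21.2%. The GAS-like motif was in 2 of the 10, against 6.57%. Both of these were the second windows of TAP1 and PSMB8, which are not printed. TAP1 and PSMB9 are neighbours transcribed away from each other, with 487 bases between their starts. Their windows share 13 bases, which hold the CCAAT box of both. A match of letters is a description of these windows and not a binding site.

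On GRCh38.p14, 8 of the 9 genes lie on chromosome 6, in the MHC, and B2M lies on chromosome 15 (chr15:44711517-44718145). TAP2 (chr6:32821831-32838739), PSMB8 (chr6:32840717-32844679), TAP1 (chr6:32845209-32853704) and PSMB9 (chr6:32854192-32859851) follow each other in that order. HLA-E (chr6:30489509-30494194), HLA-C (chr6:31268749-31272092) and HLA-B (chr6:31353875-31357179) lie before them in the coordinates and TAPBP (chr6:33299694-33314078) after them. These positions cover whole genes, exons and introns together. TAPBP overlaps RGL2, TAP1 and PSMB8 overlap the antisense gene PSMB8-AS1, HLA-B overlaps MIR6891 and B2M overlaps MIR10393. The counting was not stated to use strand, so reads of overlapping genes cannot be told apart. HLA-B and HLA-C are near-identical in parts and highly polymorphic, and how reads were divided among class I heavy chain genes is uncertain.

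Library totals ranged from 582233 to 4346627 counts, which is shallow. The members were covered by 321 counts (PSMB9) to 15338 counts (B2M) over the 18 libraries, and PSMB9 had 52 counts at most in a library, so its values are the least precise. The labelled cell type was checked against 14 microglia and macrophage markers. CX3CR1, AIF1, TYROBP, C1QA, C1QB and C1QC had no count in any library, and only CD68, a lysosomal protein, passed the filter. The summed level of the 14 was 17.4 to 34.3 CPM (the count scaled to library size, as edgeR's cpm gives it with TMM factors) in the vehicle and 25 µM groups and 52.8 to 79.5 CPM in the 50 µM groups. CD68 made up most of that sum, with 49.2 to 78.5 CPM in the 50 µM groups. The 9 mesenchymal markers summed to 12903 to 21064 CPM in the libraries other than those of 50 µM PFOS after recovery. In that group they summed to 3776 to 12500 CPM. FN1 made up most of the sum, with group means of 11322 to 15240 CPM outside that group and 6252 CPM in it. VIM was not lower there, at a mean of 631 CPM against 537 CPM in vehicle after recovery. COL3A1 was at 0 and LUM had 3 counts in all. The 6 lymphocyte markers summed to at most 5.56 CPM, and CD3D, CD3E and MS4A1 were at 0. The libraries thus carried the defining microglial transcripts at or near 0, and the cells are called HMC3 cells here. In bulk RNA, fewer cells of a type and less RNA per cell cannot be told apart.

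One group held libraries that stand apart. Counts of 79 ribosomal protein genes made up 1.20% to 2.43% of each library in the other 5 groups. In 50 µM PFOS after recovery they made up 2.96% in replicate 1, 7.61% in replicate 2 and 5.05% in replicate 3. Each member's change against vehicle in this group is therefore also given without replicate 2, and without replicates 2 and 3 together. The latter was chosen after seeing the data and leaves 1 library in the group. Fewer of all tested genes were called in both fits, so a lost call need not be particular to a member.

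The heavy chains bind the peptide and carry the variable face that T cells read. HLA-B stood at 51.7, 42.9 and 41.8 CPM in vehicle at 24 h, at 45.4, 43.7 and 42.1 CPM in 25 µM PFOS, and at 44.5, 48.7 and 53.5 CPM in 50 µM PFOS. After recovery it stood at 63.6, 64.5 and 53.1 CPM in vehicle, 53.7, 54.9 and 56.2 CPM in 25 µM PFOS, and 76.7, 33.7 and 87.5 CPM in 50 µM PFOS. The groups overlapped in each comparison of PFOS with vehicle, and the 50 µM recovery group held both the highest and the lowest of all 18 values. The log2 fold change against vehicle ranged from -0.13 ± 0.23 (SE) in 25 µM PFOS after recovery to 0.14 ± 0.23 in 50 µM PFOS at 24 h. In 50 µM PFOS after recovery it was 0.10 ± 0.23 (adjusted p = 0.790). There it was 0.44 without replicate 2, -0.16 without replicate 3 and 0.35 without both, not called in any of these fits.

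HLA-C stood at 51.7, 53.7 and 61.8 CPM in vehicle at 24 h, against 64.1, 64.5 and 57.9 CPM in 25 µM PFOS and 62.1, 59.5 and 68.8 CPM in 50 µM PFOS. After recovery it stood at 76.6, 75.5 and 71.9 CPM in vehicle, 107, 94.2 and 86.4 CPM in 25 µM PFOS, and 112, 57.4 and 128 CPM in 50 µM PFOS. In 25 µM PFOS after recovery all 3 libraries lay above the 3 vehicle libraries, but the change of 0.35 ± 0.20 on the log2 scale was not called (adjusted p = 0.767). At 50 µM after recovery the change was 0.39 ± 0.20 (adjusted p = 0.167). Without replicate 2 of that group, its lowest library for HLA-C, the change was 0.68 and passed the test (adjusted p = 0.00359). It did not pass without replicate 3 (0.16, adjusted p = 0.612) or without both (0.58, adjusted p = 0.120). With a trend along gene span (exons and introns together) removed it was -0.32 (adjusted p = 0.340).

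HLA-E, a conserved heavy chain that NK cell receptors read, was the steadiest of the 3. Its group means lay between 141 and 170 CPM. In vehicle it was at 141, 165 and 168 CPM at 24 h and at 155, 148 and 158 CPM after recovery. With 50 µM PFOS it was at 161, 169 and 179 CPM at 24 h. After recovery the 50 µM libraries were at 176, 83.8 and 163 CPM, so replicate 2 lay below every other library of the series and the other two lay among them. The change against vehicle lay between -0.14 ± 0.19 in 50 µM PFOS after recovery and 0.10 ± 0.18 in 50 µM PFOS at 24 h. The former turned to 0.14 without replicate 2 (adjusted p = 0.540) and to 0.19 without replicates 2 and 3 (adjusted p = 0.637). At 25 µM the 95% interval ran from -0.34 to 0.42 at 24 h and from -0.31 to 0.46 after recovery.

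**Figure D1:**
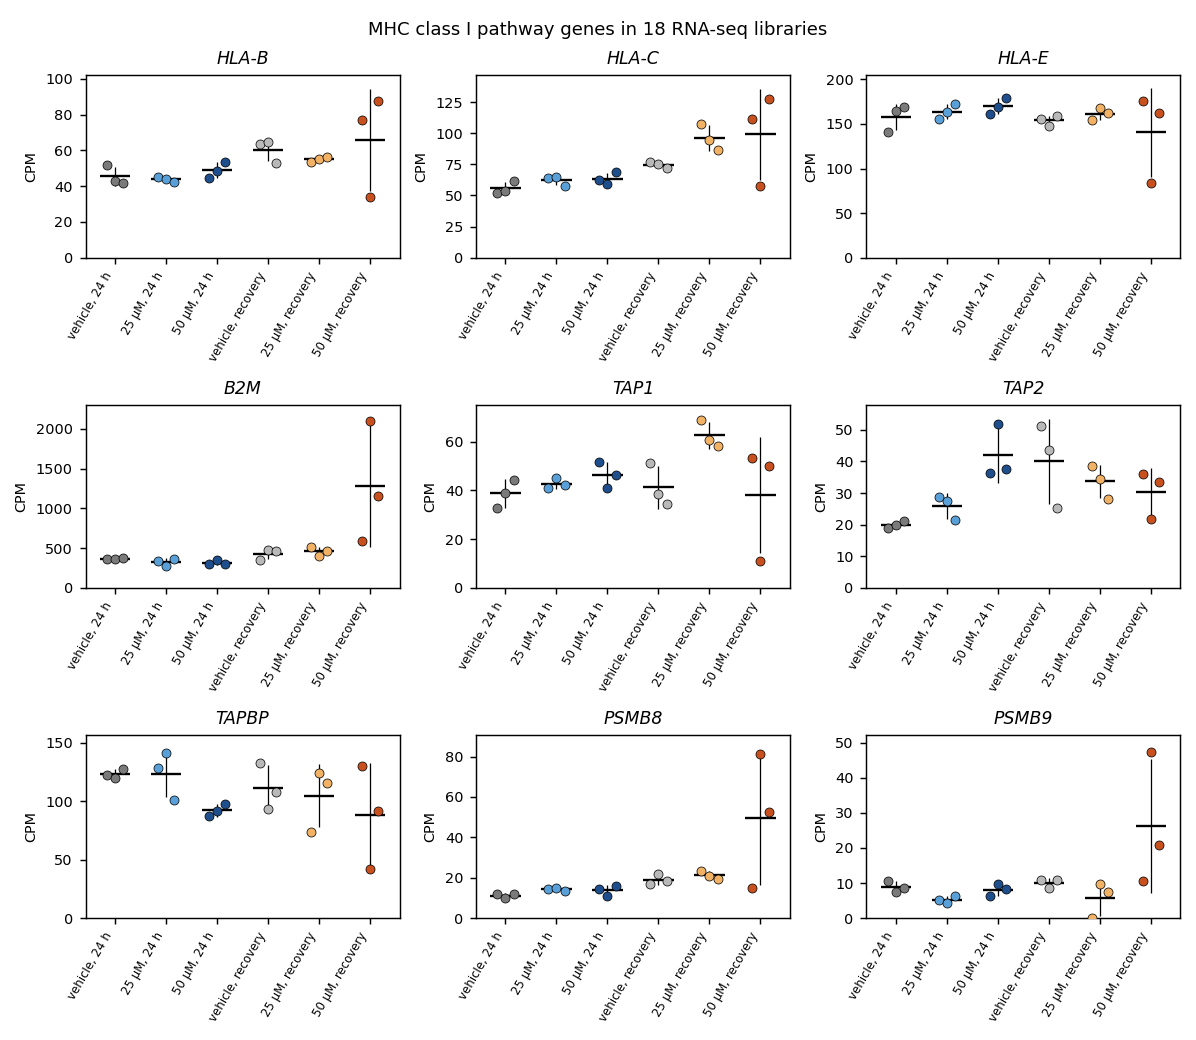
CPM of each of the 9 genes (vertical axes, linear, each from 0) in the 3 libraries of each group (points, replicates 1 to 3 from left to right), with the group mean (horizontal line) and 1 SD either way (vertical line). In 50 µM PFOS after recovery replicate 2 is the highest library for B2M, PSMB8 and PSMB9 and the lowest for HLA-B, HLA-E, TAP1 and TAPBP.

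B2M, the light chain that every class I heavy chain needs to reach the cell surface, was nearly the same in the 3 vehicle libraries at 24 h, at 363, 366 and 378 CPM. It stood at 343, 277 and 364 CPM in 25 µM PFOS and at 301, 357 and 295 CPM in 50 µM PFOS. The 50 µM libraries all lay below the vehicle libraries, by a change of -0.22 ± 0.28 that was not called (adjusted p = 0.637). After recovery vehicle stood at 350, 478 and 460 CPM and 25 µM PFOS at 515, 399 and 465 CPM, with overlap. The libraries of 50 µM PFOS after recovery were at 586, 2104 and 1152 CPM. All 3 lay above every other library of the series, and they spanned a wider range than all the rest together. The mean of 1280 ± 767 CPM (SD, n = 3) stood against 429 ± 69.2 CPM in vehicle, a log2 change of 1.58 ± 0.27 (adjusted p = 0.000253). B2M also passed the test against 25 µM PFOS after recovery, at 1.49 ± 0.27 (adjusted p = 0.00104). These SE and p-values rest on a spread estimated over all 6 groups, not on the spread of this group alone. When only the groups compared were fitted, B2M was at 1.63 against vehicle (adjusted p = 0.0341) and was the only member called. Against 25 µM PFOS it was then at 1.46 and not called (adjusted p = 0.0886). That fit called 0 of all tested genes, against 2172 in the fit of all groups.

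The library with the highest B2M level was the one with the highest ribosomal protein share, and the next highest had the next share. Without replicate 2 the B2M change against vehicle was 1.01 and still passed (adjusted p = 0.000444). Without replicates 2 and 3 it was 0.44 and did not pass (adjusted p = 0.215), with replicate 1 alone in the group and assumed to vary as the other groups do. The part of the ribosomal protein share in this result was not tested.

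TAP2 was the only member called at 24 h. It stood at 18.8, 19.8 and 21.2 CPM in vehicle, at 28.8, 27.5 and 21.4 CPM in 25 µM PFOS, and at 36.2, 51.9 and 37.7 CPM in 50 µM PFOS. The 3 groups did not overlap and were ordered by dose. The 50 µM group was higher than vehicle by 1.04 ± 0.26 on the log2 scale (adjusted p = 0.00677), and the call was kept in each of the 6 fits that left out 1 library of the 2 groups. The 25 µM change of 0.37 ± 0.26 was not called (adjusted p = 0.785). Nor was the difference of 0.67 ± 0.25 between the doses (adjusted p = 0.110). Ribosomal protein shares in the 50 µM libraries at 24 h were 1.85% to 2.43%, and in vehicle at 24 h 1.33% to 1.46%; their part in the TAP2 result was not tested.

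After recovery the order of the TAP2 means was the reverse. Vehicle libraries stood at 51.3, 43.5 and 25.2 CPM, 25 µM PFOS at 38.6, 34.4 and 28.1 CPM, and 50 µM PFOS at 36.0, 21.9 and 33.3 CPM, so that the groups overlapped. The 50 µM change was -0.40 ± 0.26 (adjusted p = 0.263). It was -0.18 without replicate 2 of that group and -0.13 without replicates 2 and 3, again not called. The vehicle level itself was higher after recovery than at 24 h, by 0.97 ± 0.25 on the log2 scale. All 3 libraries were above the 24 h ones, but the change was not called (adjusted p = 0.0670); without vehicle recovery replicate 3 it was (1.22, adjusted p = 0.0163), and in the other 5 fits that left out 1 library it was not. Vehicle after recovery had a mean of 40.0 ± 13.4 CPM (SD, n = 3), close to the 42.0 ± 8.65 CPM of 50 µM PFOS at 24 h.

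TAP1, the partner of TAP2 in the transporter, did not pass the test in any comparison. At 24 h it was at 32.9, 38.9 and 44.5 CPM in vehicle, 41.0, 45.3 and 42.1 CPM in 25 µM PFOS, and 51.7, 41.1 and 46.4 CPM in 50 µM PFOS. The order of these means followed dose, but the libraries overlapped, and the 50 µM change was 0.23 ± 0.30 (adjusted p = 0.656). After recovery it was at 51.3, 38.5 and 34.3 CPM in vehicle, at 68.7, 60.7 and 58.3 CPM in 25 µM PFOS, and at 53.5, 10.9 and 50.0 CPM in 50 µM PFOS. The 25 µM libraries all lay above vehicle, by 0.61 ± 0.29 (adjusted p = 0.714). The value of 10.9 CPM in 50 µM replicate 2, from 12 counts, was the lowest of the series. The 50 µM change after recovery was -0.15 ± 0.32 (adjusted p = 0.761). It turned to 0.36 without replicate 2 (adjusted p = 0.282) and to 0.40 without replicates 2 and 3 (adjusted p = 0.511).

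TAPBP encodes tapasin, which bridges the transporter and the heavy chain. It stood at 122, 120 and 128 CPM in vehicle at 24 h and at 86.9, 91.9 and 97.9 CPM in 50 µM PFOS. The 50 µM libraries lay wholly below vehicle, yet the change of -0.41 ± 0.26 was not called (adjusted p = 0.294). It was called when only the 2 groups compared were fitted (-0.41, adjusted p = 0.0200). In 25 µM PFOS at 24 h it was at 128, 141 and 101 CPM, on both sides of vehicle. After recovery it was at 133, 93.0 and 108 CPM in vehicle, at 73.8, 124 and 116 CPM in 25 µM PFOS, and at 130, 41.9 and 91.7 CPM in 50 µM PFOS. These groups overlapped throughout, and the 50 µM change was -0.34 ± 0.27 (adjusted p = 0.358). Without replicate 1 of the 50 µM group it was -0.77 and passed the test (adjusted p = 0.0199). Without replicate 2 it turned to 0.03 (adjusted p = 0.949), and without replicates 2 and 3 to 0.25 (adjusted p = 0.670).

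PSMB8 stood at 11.8, 9.73 and 12.1 CPM in vehicle at 24 h, at 14.4, 15.1 and 13.2 CPM in 25 µM PFOS, and at 14.5, 10.8 and 15.8 CPM in 50 µM PFOS. The 25 µM libraries lay above vehicle, by an uncalled 0.37 ± 0.38 (adjusted p = 0.882). After recovery the values were 16.9, 22.0 and 18.3 CPM in vehicle and 23.5, 21.0 and 19.4 CPM in 25 µM PFOS. With 50 µM PFOS after recovery they were 15.1, 81.1 and 52.8 CPM. Replicate 1 lay below every vehicle library and the other two far above them. The change of 1.38 ± 0.33 passed the test (adjusted p = 0.00401), but without replicate 2 it was 0.75 and did not (adjusted p = 0.120). With replicates 2 and 3 both left out it was -0.37 (adjusted p = 0.710).

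PSMB9, which sits beside TAP1 and shares its promoter region, showed the same order of the 50 µM recovery libraries as PSMB8. At 24 h it was at 10.6, 7.57 and 8.54 CPM in vehicle, 5.04, 4.32 and 6.29 CPM in 25 µM PFOS, and 6.21, 9.73 and 8.16 CPM in 50 µM PFOS. The 25 µM libraries, with 7 to 16 counts each, lay below vehicle by an uncalled -0.76 ± 0.50 (adjusted p = 0.760). After recovery it was at 10.7, 8.65 and 11.0 CPM in vehicle. In 25 µM PFOS replicate 1 had 0 counts, for which a floor of 3 counts allows up to 5.03 CPM, and the other libraries were at 9.83 and 7.56 CPM. In 50 µM PFOS after recovery it was at 10.5, 47.4 and 20.8 CPM, with replicate 1 inside the vehicle range and the others above it. The change of 1.46 ± 0.43 passed the test (adjusted p = 0.0146). Without replicate 2 it was 0.63 (adjusted p = 0.379), and without replicates 2 and 3 it was 0.08 (adjusted p = 0.968). It also lost the call without vehicle replicate 2 (1.36, adjusted p = 0.0528).

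**Figure D2:**
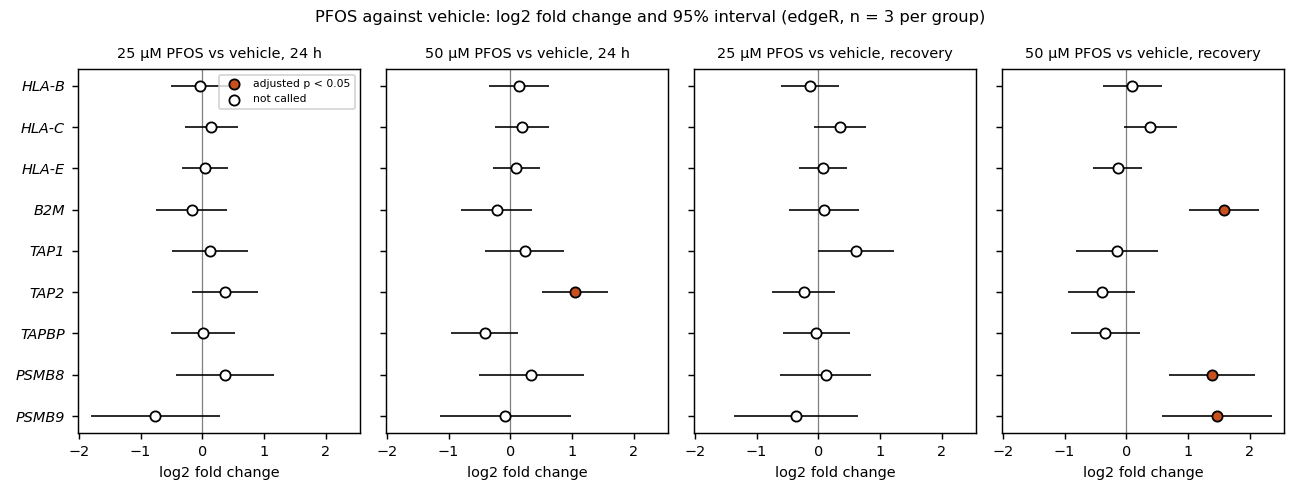
Log2 fold change of each gene (points) with its 95% interval (lines) in the 4 comparisons of PFOS with vehicle, 3 libraries a group; filled points passed the test at an adjusted p of 0.05. TAP2 stands alone at 50 µM and 24 h, at 1.04, and B2M, PSMB8 and PSMB9 stand between 1.38 and 1.58 at 50 µM after recovery.

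The members' counts of calls were read against the share of all tested genes that were called. In 25 µM PFOS at 24 h edgeR called 0 of the 9 members, with 0 at an unadjusted p under 0.05 and 0 by DESeq2, where 1.24% of all genes were called. In 25 µM PFOS after recovery it called 0 of the 9, again with 0 at an unadjusted p under 0.05 and 0 by DESeq2, and 0% of all genes; over all genes 693 had an unadjusted p under 0.05 and DESeq2 called 1. In 50 µM PFOS the counts of 1 and 3 stand beside 18.8% and 28.4%. The median log2 change of the 9 was 0.04, 0.14, 0.08 and 0.10 in these 4 comparisons, beside medians of 0.00, 0.01, 0.00 and -0.05 over all genes. The typical member thus moved little, and the calls came from a few genes.

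Between the doses, 0 of the 9 members were called at 24 h by edgeR, with 1 (TAP2) at an unadjusted p under 0.05 and 0 by DESeq2, where 7.4% of all genes were called. After recovery 3 of the 9 were called, all higher in 50 µM PFOS (B2M, PSMB8 at 1.26 ± 0.35 and PSMB9 at 1.82 ± 0.48), where 22.1% of all genes were called and 14.7% were called higher. TAP1 lay lower in all 3 of the 50 µM libraries than in the 25 µM ones, by an uncalled -0.76 ± 0.33 (adjusted p = 0.0983). Without replicate 1 of the 50 µM group TAP1 (-1.16, adjusted p = 0.0105) and TAPBP (-0.76, adjusted p = 0.0266) were called lower. Without replicate 2 they were at -0.26 (adjusted p = 0.519) and 0.04 (adjusted p = 0.949), and without replicates 2 and 3 at -0.21 and 0.25. TAP1 was also called lower with the trend along gene span removed (-0.95, adjusted p = 0.0400). Without replicate 2 HLA-B was called higher (0.57, adjusted p = 0.0464; -0.02 without replicate 3), and PSMB8 (0.64, adjusted p = 0.263) and PSMB9 (0.97, adjusted p = 0.221) lost their calls. PSMB8 also lost its call without replicate 2 of the 25 µM group (1.26, adjusted p = 0.0854). Without replicates 2 and 3 of the 50 µM group, which leaves 1 library there, the B2M change was 0.36. The calls of B2M, PSMB8 and PSMB9 were not kept in that fit, where far fewer of all genes were called as well. These comparisons share libraries with those against vehicle.

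Whether the 50 µM effect itself differed between 24 h and recovery was tested as the difference of the 2 effects. It did for 2 of the 9 genes, where 19.1% of all genes were called, 11.6% higher and 7.42% lower. For B2M the effect was higher after recovery by 1.80 ± 0.39 on the log2 scale (adjusted p = 0.00457). For TAP2 it was lower after recovery by a difference of -1.44 ± 0.37 (adjusted p = 0.0102). Both kept their call when replicate 2 of 50 µM PFOS after recovery was left out. With replicates 2 and 3 left out B2M was at 0.66 (adjusted p = 0.0936) and TAP2 at -1.16 (adjusted p = 0.120). For PSMB8 the difference was 1.04 ± 0.53 (adjusted p = 0.172) and for PSMB9 1.54 ± 0.66 (adjusted p = 0.105), neither called, and both were called without replicate 1 of 50 µM PFOS after recovery (1.46, adjusted p = 0.00252, and 1.92, adjusted p = 0.0127). Without replicate 2 they were at 0.41 (adjusted p = 0.613) and 0.71 (adjusted p = 0.480), and without replicates 2 and 3 at -0.71 and 0.16. The same difference at 25 µM called 0 of the 9 by edgeR, with 0 at an unadjusted p under 0.05 and 0 by DESeq2, where 0.0203% of all genes were called.

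Vehicle after recovery was set against vehicle at 24 h to show the background of a further day in culture. It called 0 of the 9 by edgeR, with 2 (TAP2 and PSMB8) at an unadjusted p under 0.05 and 1 (TAP2) by DESeq2, where 0.975% of all genes were called. The largest changes among the 9 were those of HLA-B, HLA-C, TAP2 and PSMB8, at 0.43 ± 0.22, 0.41 ± 0.20, 0.97 ± 0.25 and 0.81 ± 0.37 on the log2 scale. The median change was 0.22 over the 9 and 0.01 over all genes. These are cells never given PFOS, and the differences did not pass the test.

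**Figure D3:**
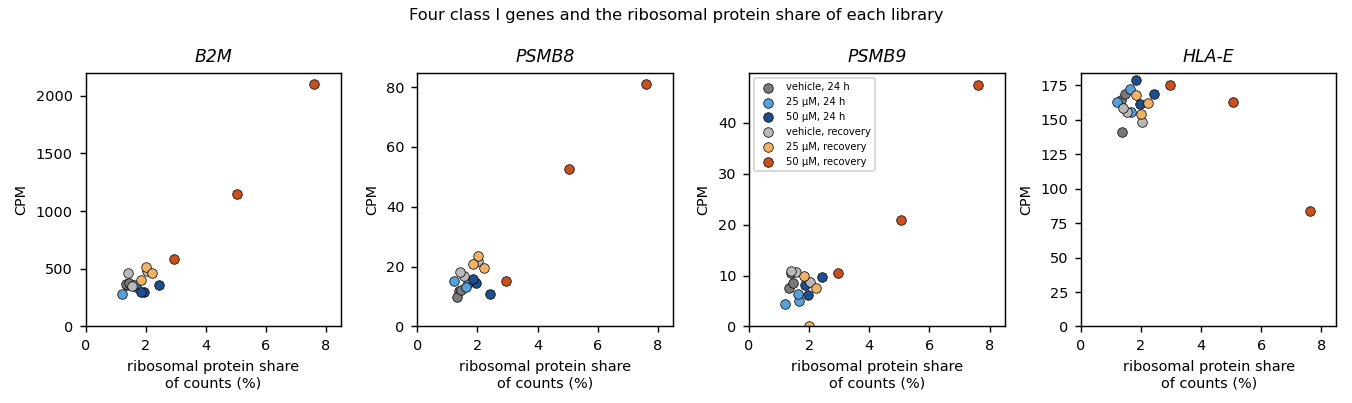
CPM of B2M, PSMB8, PSMB9 and HLA-E (vertical axes, linear) against the share of counts in 79 ribosomal protein genes (horizontal axes, percent), 1 point for each of the 18 libraries, coloured by group. Replicates 2 and 3 of 50 µM PFOS after recovery, at 7.61% and 5.05%, are the highest points for the first 3 genes, and replicate 2 is the lowest for HLA-E.

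The other proteasome genes of the pathway moved with the immunoproteasome members after recovery at 50 µM. Of the 8 listed genes, all tested, 7 were called higher there, where 17.7% of all genes were called higher, with a median change of 0.99 beside -0.05 over all genes, and DESeq2 also called 7. In the other 3 comparisons with vehicle edgeR and DESeq2 called 0, with 1 gene at an unadjusted p under 0.05, in 50 µM PFOS at 24 h. Of all genes edgeR called 18.8% there, 1.24% in 25 µM PFOS at 24 h and 0% in 25 µM PFOS after recovery. POMP, an assembly chaperone of the proteasome, rose from 53.0 ± 7.52 to 215 ± 117 CPM (SD, n = 3 each), a log2 change of 2.02 ± 0.29. PSME2, a subunit of the PA28 activator, rose from 96.6 ± 13.8 to 289 ± 150 CPM. The constitutive catalytic subunits PSMB5 and PSMB7, whose places PSMB8 and PSMB10 take in the immunoproteasome, rose by 1.23 ± 0.17 and 1.42 ± 0.22. Constitutive and immunoproteasome genes were thus both higher in this group. The count fell from 7 to 4 without replicate 2 and also without replicate 3, and to 1 without both. With a trend along gene span removed it was 4 higher and 1 lower. The group compared with vehicle here is the one with ribosomal protein shares of 2.96% to 7.61%, and their part in the result was not tested.

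Of the 10 assembly and peptide trimming partners, 9 were tested and TAPBPL was not. At 24 h in 50 µM PFOS 3 were called higher, where 9.18% of all genes were called higher, with a list median of 0.27 beside 0.01 over all genes. ERAP1, the aminopeptidase that trims peptides in the endoplasmic reticulum, rose from 30.5 to 49.9 CPM, by 0.74 ± 0.21 (adjusted p = 0.0193). CALR, the chaperone calreticulin of the loading complex, rose by 0.41 ± 0.13, and UGGT1, which returns poorly loaded molecules for another round, rose by 0.43 ± 0.14. The count was 0 without replicate 1 of the 50 µM group or without replicate 3 of vehicle. It was 1 without replicate 2 of vehicle and 2 in the other leave-one-out fits. DESeq2 called 4 higher. After recovery at 50 µM UGGT1 was the 1 gene called, lower, by -0.40 ± 0.14 (adjusted p = 0.0389), where 10.7% of all genes were called lower. That call was lost without replicate 2 and without replicate 3. Without replicate 1 of the 50 µM group 3 genes of the list were called lower, and DESeq2 called 2 lower.

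Among 14 other class I and class I-like molecules 6 were tested. HLA-F, HLA-G, HLA-H, HLA-J, ULBP1, ULBP2, ULBP3 and CD1D were too low. MICB, a stress-induced ligand of the activating receptor NKG2D, was lower in 50 µM PFOS at 24 h, at 51.9 to 55.1 CPM against 119 to 154 CPM in vehicle. This was a log2 change of -1.34 ± 0.17 (adjusted p = 9.0e-06). After recovery it was lower by a change of -0.59 ± 0.17 (adjusted p = 0.0125). FCGRT, the heavy chain of the neonatal Fc receptor and a partner of B2M, was higher after recovery at 50 µM, at 45.1 CPM against 23.0 CPM, a change of 0.98 ± 0.24 (adjusted p = 0.00508). In that comparison 1 of the 6 was higher and 1 lower, where 17.7% of all genes were called higher and 10.7% lower, with a median of -0.50. Without replicate 2 the count was 1 higher and 0 lower, and without replicates 2 and 3 it was 0 and 0.

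Of 16 transcription factors known at class I promoters 15 were tested, RFXAP being too low. At 24 h edgeR called 0 of the 15 in either dose, with 3 at 25 µM and 4 at 50 µM at an unadjusted p under 0.05. DESeq2 called 0 and 1. Over all genes edgeR called 1.24% at 25 µM and 18.8% at 50 µM. NLRC5, the class I transactivator, was tested at a median of 4.83 CPM and was not called against vehicle. After recovery at 50 µM RFXANK, a subunit of the RFX complex, rose from 7.87 to 17.8 CPM (1.19 ± 0.35, adjusted p = 0.0152). By edgeR and by DESeq2 1 gene of the list was called higher and 1 lower, with a median of -0.06 by edgeR. Over all genes edgeR called 17.7% higher and 10.7% lower there. Leaving out 50 µM libraries, the counts by edgeR were 1 higher and 3 lower without replicate 1, 1 and 0 without replicate 2, and 0 and 0 without replicate 3. Without replicate 3 of vehicle 0 were higher and 1 lower.

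Of the 9 interferon receptor and signalling genes 8 were tested, SOCS1 being too low. SOCS3, a feedback inhibitor of cytokine receptor kinases, was lower in 50 µM PFOS at 24 h, at 16.2 against 35.3 CPM (a fold of 0.501, adjusted p = 0.0370). JAK1, a kinase of interferon receptors, was lower after recovery at 50 µM, at 89.8 against 151 CPM (-0.75 ± 0.27, adjusted p = 0.0401). These were the 2 calls of the list against vehicle by edgeR. Of all genes, 9.59% were called lower in 50 µM PFOS at 24 h and 10.7% after recovery. The call at 24 h was lost without replicate 1 or 2 of the 50 µM group and without replicate 2 or 3 of vehicle. The count after recovery was 0 without replicate 2 and without replicate 3, and 2 without replicate 1. The transcription factor and receptor lists had 0 calls in 50 µM PFOS after recovery when replicates 2 and 3 were left out.

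MHC class II genes, which present peptides to CD4+ T cells, were mostly too low to test: 2 of 8 passed the filter, and the transactivator CIITA had 4 counts in all. HLA-DPB1 was higher after recovery at 50 µM, by a change of 1.52 ± 0.37 (adjusted p = 0.00411), where 17.7% of all genes were called higher. Without replicate 2 of that group 0 of the 2 were called. CD68, the 1 tested microglia and macrophage marker, was higher in 50 µM PFOS at 24 h, at 62.1 ± 14.2 CPM against 19.6 ± 1.69 CPM. It was also higher after recovery, at 54.2 ± 5.05 CPM against 20.5 ± 5.75 CPM, a log2 change of 1.44. The change was 1.58 without replicates 2 and 3. With the trend along gene span removed it was 0.57 and not called. Of the 7 tested mesenchymal markers edgeR called 4 lower in 50 µM PFOS at 24 h, where 9.59% of all genes were called lower, and 4 lower after recovery, where 10.7% were. The count at 24 h was 2 without replicate 2. After recovery it was 2 without replicate 2, 1 without replicate 1 of vehicle and 0 without replicates 2 and 3. The part of these markers in the members' results was not tested.

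The genes most like the members were found from the mean over the 9 of centred log2 CPM in each library. That mean ran from -0.26 in vehicle at 24 h replicate 2 to 0.65 in 50 µM PFOS after recovery replicate 3. Among tested genes outside the list, IFI35, an interferon-induced gene, had the highest Pearson correlation with it over the 18 libraries, at 0.90. DHRS1 and IFT27 followed at 0.85 each, then BABAM1 at 0.84, CIDECP at 0.83 and TP53I3 at 0.83. The members themselves differed in how they followed their mean, from 0.75 for HLA-C and 0.74 for HLA-B to 0.05 for TAP1, -0.09 for HLA-E and -0.14 for TAPBP. The 9 genes thus did not vary as a block. These are descriptions over points that share groups and depth, with no test.

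**Figure D4:**
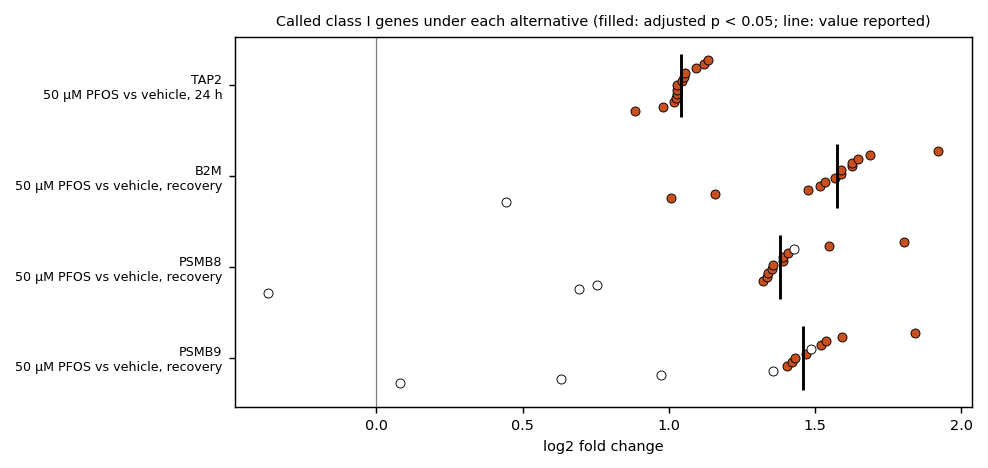
Log2 fold change of the 4 called genes under each alternative (points, filled where the adjusted p was under 0.05) and as reported (vertical lines). TAP2 and B2M at 50 µM stay called under every alternative shown except the loss of replicates 2 and 3, which puts B2M at 0.44; PSMB8 and PSMB9 have uncalled points between -0.37 and 1.49.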

How the data were processed

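RNA-seq counts of 18 libraries in 6 groups of 3 were analysed. Per the labels' protocols, RNA was extracted with TRIzol and made into Smart-seq2 libraries after poly(A) selection; such reads carry no molecular identifiers or strand. The authors deposited raw counts per gene symbol, 1 column per library, per the file headers. The series names Trimmomatic, STAR, DESeq2 and MACS2, with GRCh38 and hg38 as builds, per the submitters' processing notes. No source used here gives the counting tool, the annotation or whether strand was used.

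Every column matched the labels of 1 library. The filterByExpr function (minimum count 10) of edgeR 4.0.16, run in R 4.3.3, left 9847 genes with 99.2% of counts. These were scaled by TMM and fitted by the quasi-likelihood method with 1 mean per group over all 18 libraries. P-values are two-sided and Benjamini-Hochberg adjusted over all genes tested; called means under 0.05. The median biological coefficient of variation was 16.0%. CPM values use TMM-scaled totals, and log2 CPM a prior count of 2. Replicates were compared by a chi-square test per pair, which gave 1.29 to 21.4 per degree of freedom, and each library was counted once. The highest value was for replicates 1 and 2 of 50 µM PFOS after recovery. The next, 10.6, was for replicates 2 and 3 of vehicle after recovery. Floors and intervals cover counting error and spread between libraries only. The edgeR step was tested on simulated data. Positions, gene spans and promoters came from RefSeq on GRCh38.p14.

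The members and lists were chosen with earlier results of these data known. All members are named; of other pathway genes, those called in a comparison of PFOS with vehicle, up to 4 per list and comparison by smallest p; and the 6 genes most like the members. The values of 1 gene in the transcription factor list are not reported here, and the list's counts and medians include it. Alternatives were DESeq2 1.42.0 and its size factors, no filter, counts thinned to the smallest library, a gene-span trend removed, only the compared groups fitted, a replicate block, and leaving out each library.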

Additional observations from a re-analysis of the deposited data

Results flagged for a closer look

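The effect of 50 µM PFOS on B2M differed between the times: it was -0.22 at 24 h and 1.58 after recovery on the log2 scale, a difference of 1.80 (edgeR adjusted p = 0.00457). The 50 µM libraries lay below all 3 vehicle libraries at 24 h, a change that was not called (edgeR adjusted p = 0.637). After recovery they lay above all 3. Without replicates 2 and 3 of 50 µM PFOS after recovery the difference was 0.66. Of all genes 19.1% were called for this difference.

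The effect of 50 µM PFOS on TAP2 differed the other way: it was 1.04 at 24 h and -0.40 after recovery, a difference of -1.44 (edgeR adjusted p = 0.0102). The mean of the 50 µM libraries went from 42.0 to 30.4 CPM between the times. That of the vehicle libraries went from 19.9 to 40.0 CPM. Without replicates 2 and 3 of 50 µM PFOS after recovery the difference was -1.16. Of all genes 7.42% were called lower for this difference.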

How the results depend on the processing

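Without 50 µM PFOS recovery replicates 2 and 3, PSMB8 turned to -0.37 against vehicle and -0.48 against 25 µM, and B2M fell to 0.44 and 0.36. Calls of members that involve this group were lost (3 reported against vehicle, 3 against 25 µM and 2 in the change of the 50 µM effect). Far fewer of all genes were called in these fits as well, which leave 1 library in the group. Fitting only the groups compared called 2 members in 50 µM PFOS at 24 h (1 reported) and 1 in 50 µM after recovery. It called 2 between doses at 24 h (0 reported) and 0 between doses after recovery, where it called 0 of all genes. Thinned counts, with 8 members and 8149 genes tested, called 1 between doses after recovery. For vehicle over time, DESeq2 and the unfiltered fit each called 1 (0 reported). Leaving out 1 library at a time gave 2 to 5 between doses after recovery, 2 to 4 for the change of the 50 µM effect and 0 to 1 for vehicle over time; the highest came without 50 µM recovery replicate 1 (5 and 4) and without vehicle recovery replicate 3 (1). With the gene-span trend removed, PSMB8 (0.69, adjusted p = 0.0863) and PSMB9 (0.97, adjusted p = 0.0836) lost their calls after recovery, HLA-E was called lower (-0.68, adjusted p = 0.0248), and B2M stayed called at 1.16. The causes were not tested. Of 1025 member changes called in neither fit, 87 had the opposite sign. Replicate numbers did not pair the libraries: in 0 of 15 pairs of groups did every same-numbered pair correlate above 0.1, and 5 of 18 libraries correlated best with their own number; the replicate block changed no member's call and gave TAP2 1.02 at 24 h and B2M 1.53 after recovery.

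Counts over all genes moved by over 1.5 times as follows. Fitting only the groups compared gave 423 for 25 µM at 24 h (122 reported), 2886 for 50 µM at 24 h (1848), 881 for 50 µM after recovery (2800; 92.7% higher, reported 62.3%), 1952 and 0 between doses (729 and 2172), and 35 and 1036 for the changes of effect (2 and 1878). Thinning gave 53, 1143, 460, 1417, 4, 1030 and, for vehicle over time, 27 (96 reported). Leaving out both libraries gave 264, 23 and 436. Without a filter there were 5 calls for 25 µM after recovery, 10 for the change of the 25 µM effect and 224 for vehicle over time, by DESeq2 1, 37 and 152, and with the block 54 for vehicle over time. Leaving out 1 library gave 49 to 76 for 25 µM at 24 h, 1133 to 1698 for 50 µM at 24 h, 1604 to 4018 for 50 µM after recovery, 354 to 554 and 935 to 3710 between doses, 1198 to 3301 for the change of the 50 µM effect and 12 to 77 for vehicle over time.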
